A study of Mus musculus with 84 samples.

Results

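Primed distal regions were stretches of the adipocyte genome, away from promoters, that carried H3K4me1 in chow-fed control mice while H3K27ac and H3K27me3 were called in none of the control libraries. The members were chosen by measured values. H3K4me1 peaks of all 22 H3K4me1 libraries were merged, and a region was kept where it lay outside 2000 bp of any protein-coding transcription start site (TSS) and touched no H3K4me3 peak. It also had to have an H3K4me1 peak in 5 or more of the 10 control libraries, an H3K27ac peak in none of the 9 and an H3K27me3 peak in none of the 10. This left 402 regions of 26064 distal regions and 70778 merged regions in all. The question put to them was which ones gained H3K27ac in mice that had been obese or had lost weight.

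H3K4me1, a mono-methyl mark on histone H3, is laid down at enhancers and can be present before an enhancer is in use. H3K27ac marks enhancers and promoters in use, whereas H3K27me3 is the repressive mark of the Polycomb complexes and H3K4me3 marks promoters. Regions with H3K4me1 alone are commonly called primed.

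All mice carried AdipoERCre and NuTRAP (labelled C576BL6 background), in which tamoxifen makes cells with an active Adiponectin promoter tag their nuclei with biotin. Tagged nuclei of epididymal fat were pulled down on streptavidin beads and profiled by CUT&Tag, which cuts DNA next to an antibody-bound mark. High-fat feeding (HFD) lasted 12 weeks in one cohort, where group H was taken at 18 weeks of age and group HC at 26 weeks, after a return to chow for 8 weeks. It lasted 25 weeks in the other, where group HH was taken at 31 weeks of age and group HHC at 39 weeks, again after 8 weeks of chow. C, CC_s, CC_l and CCC were the age-matched chow controls. There were 3 H3K27ac libraries in each diet group, 3 in C and 2 in each of CC_s, CC_l and CCC. Weight loss (WL) animals were 8 weeks older than the obese animals of their cohort, so the time and the diet cannot be told apart in that comparison.

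The libraries were uneven. H3K4me1 lists of controls held 14486 to 26967 peaks in the 12-week cohort and 29833 to 35942 in the 25-week cohort. H3K27ac lists of diet groups held 12174 to 37143 peaks in the 12-week cohort and 29246 to 41989 in the 25-week cohort. Each value below is the presence or absence of a peak, since peak signals were not scaled between libraries and read depth is unknown. Biotin enrichment was checked by H3K27ac within 2000 bp of the TSS of 8 adipocyte marker genes. All 8 were marked in every control library, and 4 to 8 in the diet libraries. Of 12 macrophage markers, 2 to 6 were marked in control libraries and 0 to 11 in diet libraries. Among them, Adgre1, Mrc1, Ptprc, Tyrobp and Laptm5 were marked in no control and in 3, 4, 5, 8 and 6 of the 12 diet libraries, Itgam in no library, and Cd14 and Fcer1g in all 9 controls and 9 diet libraries. Of 6 endothelial markers, 0 to 1 were marked in controls and 0 to 4 in diet libraries, and of 6 progenitor markers 0 to 4 and 0 to 5. Lymphocyte markers reached 1 of 8 in controls and 8 of 8 in 1 HHC library. A smaller fraction of adipocyte nuclei and less mark per nucleus cannot be told apart in such pooled nuclei.

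Membership leaned on a few libraries. H3K4me1 was called at 37.8%, 35.6% and 36.3% of the members in the 3 C libraries and at 14.9%, 33.1% and 88.1% in CC_s replicates 1, 2 and 3. It was called at 83.8% and 95.5% in CC_l and at 71.1% and 99.8% in CCC. Thus 383 of the 402 members had H3K4me1 in 3 or 4 of the 4 controls of the 25-week cohort, and 354 had it in CC_s replicate 3, which stood apart from the other libraries of its group. Without that library the same rule kept 240 regions. Near the limit of the rule, 193 members had H3K4me1 in exactly 5 controls and 354 regions just outside had it in 4. H3K27ac was called in 1 or more diet libraries at 45.1% of the former and 43.5% of the latter.

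The stretches below are shown because they come from the 6 members with H3K27ac in 5 or 6 of the 12 diet libraries, the highest counts of any member. Each is the 300 bp of the GRCm38 forward strand, from RefSeq, at the centre of the stretch that the most H3K4me1 libraries shared. Capitals mark matches on either strand to NFI (TTGGCA) or EBF (CCCNNGGGA). The Sgms1, Tldc1 and Lrp6 stretches hold none of the motifs searched, and the EBF match of the Id2 stretch can be read on both strands.
Sgms1 region (chr19:32309342-32309641): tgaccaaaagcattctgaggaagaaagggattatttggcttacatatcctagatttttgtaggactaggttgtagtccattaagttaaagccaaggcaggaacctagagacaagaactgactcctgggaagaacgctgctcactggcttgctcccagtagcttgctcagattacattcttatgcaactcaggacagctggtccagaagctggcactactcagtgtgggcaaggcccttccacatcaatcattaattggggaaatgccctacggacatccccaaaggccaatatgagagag
Irf4 region (chr13:30715763-30716062): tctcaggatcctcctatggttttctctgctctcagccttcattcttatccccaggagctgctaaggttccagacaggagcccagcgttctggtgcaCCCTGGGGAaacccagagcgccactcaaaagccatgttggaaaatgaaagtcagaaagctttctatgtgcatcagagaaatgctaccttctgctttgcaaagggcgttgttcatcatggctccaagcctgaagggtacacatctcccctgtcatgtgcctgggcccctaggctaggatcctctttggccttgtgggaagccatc
Id2 region (chr12:25301357-25301656): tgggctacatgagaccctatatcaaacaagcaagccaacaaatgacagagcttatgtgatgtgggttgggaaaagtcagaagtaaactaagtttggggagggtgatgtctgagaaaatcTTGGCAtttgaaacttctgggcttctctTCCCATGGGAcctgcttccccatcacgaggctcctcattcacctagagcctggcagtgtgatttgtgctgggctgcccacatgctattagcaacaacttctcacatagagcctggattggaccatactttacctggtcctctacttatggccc
Otulin region (chr15:27550490-27550789): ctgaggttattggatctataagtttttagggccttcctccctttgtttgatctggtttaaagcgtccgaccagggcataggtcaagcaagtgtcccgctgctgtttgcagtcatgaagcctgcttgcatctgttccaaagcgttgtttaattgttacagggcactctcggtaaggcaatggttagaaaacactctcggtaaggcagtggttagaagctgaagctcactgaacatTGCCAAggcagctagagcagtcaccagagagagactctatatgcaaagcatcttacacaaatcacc
Tldc1 region (chr8:119806884-119807183): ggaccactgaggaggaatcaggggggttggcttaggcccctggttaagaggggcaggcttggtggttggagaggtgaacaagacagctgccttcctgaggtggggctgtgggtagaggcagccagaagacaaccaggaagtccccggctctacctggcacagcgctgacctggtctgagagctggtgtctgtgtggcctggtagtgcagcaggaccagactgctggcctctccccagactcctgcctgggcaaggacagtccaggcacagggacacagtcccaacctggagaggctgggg
Lrp6 region (chr6:134543549-134543848): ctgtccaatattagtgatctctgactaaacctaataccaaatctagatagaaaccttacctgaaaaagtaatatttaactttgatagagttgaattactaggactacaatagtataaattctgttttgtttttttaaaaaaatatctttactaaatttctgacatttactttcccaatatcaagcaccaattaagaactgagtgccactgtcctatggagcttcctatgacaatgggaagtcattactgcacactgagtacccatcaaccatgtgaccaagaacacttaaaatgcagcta

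The regions were wide for distal regions. Their median width was 3222 bp (quartiles 2524 and 4259), against 2067 bp for all distal regions and 1958 bp for 18034 unprimed regions, which lacked H3K27ac and H3K27me3 in controls in the same way but had H3K4me1 in 4 or fewer control libraries. A peak present in many libraries merges to a wider region, so width was built into the choice. Of the members, 243 (60.4%) lay in introns and 78 (19.4%) overlapped exons of protein-coding genes, and 81 (20.1%) were intergenic. Among 406 active distal regions, with H3K4me1 in 5 or more controls and H3K27ac in 5 or more of 9, 34.5% lay in introns and 47% were intergenic. Over all distal regions these shares were 47.5% and 37.9%, and over unprimed regions 51.6% and 34.6%. The median distance to the nearest TSS was 31647 bp in primed and 81249 bp in active regions. It was 34928 bp in unprimed and 37138 bp in all distal regions, so active regions stood apart in distance. GC content (median 44.1% against 43.2%) and the share of repeat bases (18.9% against 17.9%) were close to those of active regions. The nearest H3K27ac peak of any control lay at a median of 10236 bp from a member, and 120 members (29.9%) had one within 5000 bp. These values were 12193 bp and 27.2% for unprimed regions, and 9009 bp and 38.8% for all distal regions.

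NFI letters occurred in 110 of the 402 central 300 bp windows (27.4%), in 27.6% of active windows and in 19.8% of all distal windows. EBF letters occurred in 8.21% of primed, 6.4% of active and 4.89% of all distal windows. AP-1 (TGANTCA) was found in 9.45% of primed and 11.2% of all distal windows, C/EBP (TTGNNCAA) in 8.21% and 8.05%, and PU.1 (GAGGAAGT) in 2.74% and 3.38%. The glucocorticoid receptor letters (ACANNNTGT) were found in 10.4% and 11.3%, STAT (TTCNNNGAA) in 11.2% and 10.4%, and the DR1 core of nuclear receptors (GGTCANAGG) in 0.995% and 2.33%. EBF factors, NFI factors and the DR1-binding receptor PPARg are regulators of adipocyte genes. These shares were not tested, and the DR1 letters were found in only 4 primed windows.

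A peak of H3K27ac was called in at least 1 of the 12 diet libraries at 201 members (50%), and at none at the other 201. Repeats over libraries were few. H3K27ac was called in 2 or more diet libraries at 94 members (23.4%), in 3 or more at 46 (11.4%), in 5 or more at 6 (1.49%) and in 6 at 1 (0.249%). Over the 18034 unprimed regions the shares were 38.4% for 1 or more, 15% for 2 or more, 5.93% for 3 or more and 0.632% for 5 or more, and over the 4489 of them with H3K4me1 in 1 to 4 controls they were 34.9%, 13.3%, 5.79% and 0.757%. The unprimed regions were narrower, and widths were not balanced in these counts. Since controls were at 0 by the rule, this is a description and no test of diet. By library, H3K27ac was called at 3.48%, 0.746% and 1.24% of the members for H, while the HC libraries were at 0.995%, 4.23% and 4.73%. It was called at 7.96%, 11.2% and 14.4% in HH and at 6.97%, 23.4% and 11.4% in HHC. The 25-week diet libraries were all above the 12-week diet libraries, and HHC replicate 2 was highest. H3K27ac peaks covered 76.67 to 108.8 Mb in the 25-week and 9.581 to 34.73 Mb in the 12-week diet libraries. Most members were also chosen through H3K4me1 in controls of the 25-week cohort. The part of these in the contrast was not tested. Of the members, 14 had H3K27ac in the 12-week cohort alone, 148 in the 25-week cohort alone and 39 in both. This split was not counted over unprimed regions, so it does not set members apart. At unprimed regions, H3K27ac was called at 0.155% to 6.64% in 12-week and at 4.47% to 15.1% in 25-week diet libraries.

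**Figure D1:**
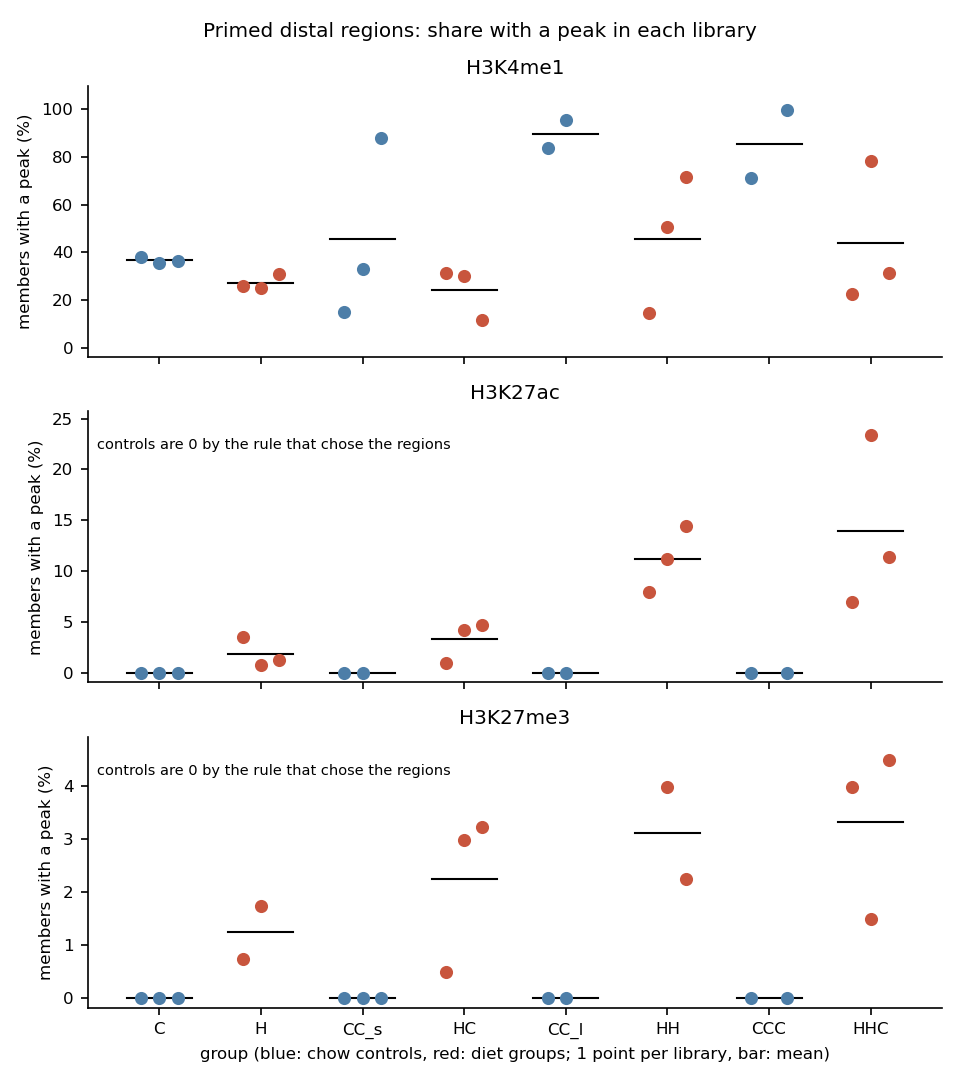
Share of the 402 primed distal regions (%) with a peak of H3K4me1, H3K27ac or H3K27me3 in each library, by group, with 1 point per library, controls in blue, diet groups in red and bars at group means. H3K27ac in diet libraries runs from 0.746% to 23.4%, and controls are at 0 because the rule required it.

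Replicated gain was rarer still. No member had H3K27ac in every H library (0%). For HC it was 1 member (0.249%), for HH there were 2 (0.498%) and for HHC there were 6 (1.49%). Over all 26064 distal regions, a peak in every diet library and in no age-matched control was found at 0.0153% for H and again 0.0153% for HC, at 0.165% for HH, and at 0.537% for HHC. Members had no control peak by choice, whereas all distal regions could have one, so the shares are set side by side and nothing is read from them. Among unprimed regions, chosen with the same absence of control H3K27ac, the shares were 0.00555%, 0%, 0.139% and 0.488%. Without HH replicate 1 the count for HH was 25, and without HHC replicates 1, 2 or 3 the count for HHC was 15, 10 or 13. These counts ask for a peak only in the libraries that remain, a looser rule. They were not set beside unprimed regions.

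The peaks that touched the members ranked low in their libraries. Ranks are among all peaks of a library, those at promoters included. They were not set beside ranks at other distal regions, so they do not set members apart. Over the 365 combinations of a member and a diet library with H3K27ac, the strongest peak at the member had a median rank at percentile 21.3 of the total signal in its own library, and 312 (85.5%) were below that library's median peak. The H3K27ac peak covered a median of 42.6% of the region, and in 292 (80%) it lay wholly inside it. Only 2 also reached a control H3K27ac peak beyond the region. In H and HC the median covered share was 9.11% to 20.7%, and in HH and HHC it was 31.8% to 59.7%.

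A control library left out of the rule shows what a member looks like in a library that did not choose it. With each of the 9 control H3K27ac libraries left out in turn, regions that lacked H3K27ac in the other 8 had it in the library left out at 1.95%, 1.95% and 7.16% (C), 0.495% and 1.95% (CC_s), 22.7% and 15.2% (CC_l) and 23.3% and 2.66% (CCC). At the same regions the diet libraries of the same cohort ranged from 0.693% to 5.31% for the 12-week cohort and from 6.54% to 26.4% for the 25-week cohort. For C replicate 3, none of the 6 diet libraries of its cohort was higher, for C replicates 1 and 2 and CC_s replicate 2, 3 of 6, and for CC_s replicate 1, all 6. For CC_l replicate 1 and CCC replicate 1, 1 of 6 was higher, for CC_l replicate 2, 2 of 6, and for CCC replicate 3, whose list held 14917 H3K27ac peaks, all 6. The shares of diet libraries thus overlapped those of control libraries that the rule had not used.

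**Figure D2:**
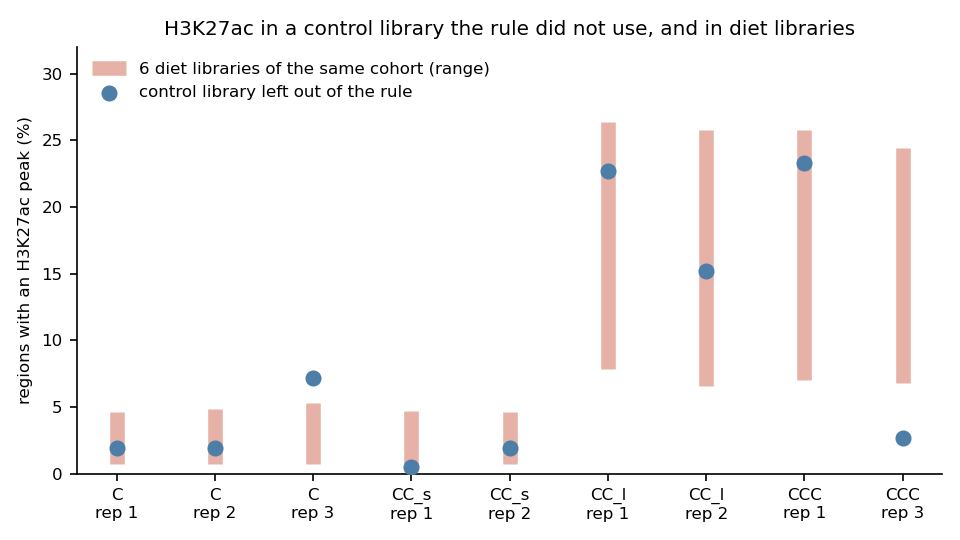
H3K27ac (% of regions with a peak) in each control library left out of the rule (blue point) and the range over the 6 diet libraries of its cohort at the same regions (red bar). C replicate 3 is above its bar, CC_s replicate 1 and CCC replicate 3 are below theirs, and the other points are inside.

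Whether diet changed H3K27ac was therefore tested at regions chosen on the controls of the other cohort. The rule was scaled to each cohort, with no H3K27ac or H3K27me3 in its controls. Chow mice of both cohorts may share such regions. The choice can thus still favour low H3K27ac and H3K27me3 and high H3K4me1 in the controls measured. H3K4me1 in 2 or more of the 4 controls of the 25-week cohort gave 2182 regions, which were measured in the 12-week cohort. H3K4me1 in 3 or more of the 6 controls of the 12-week cohort gave 482 regions, which were measured in the 25-week cohort. At the 2182 regions, H3K27ac was called at a mean of 1.85% ± 1.52 (SD, n = 3) in H and 2.06% ± 2.08 (n = 3) in C, and at 2.57% ± 2.04 (n = 3) in HC and 0.527% ± 0.292 (n = 2) in CC_s. At the 482 regions it was called at 20.4% ± 9.31 (n = 3) in HH and 33.8% ± 4.40 (n = 2) in CC_l, and at 19.9% ± 17.4 (n = 3) in HHC and 19.6% ± 20.98 (n = 2) in CCC. Averaged over the cohorts, the obese groups differed from controls by -6.82 percentage points (exact permutation test within cohorts, two-sided, p = 0.145, adjusted p = 0.285 over 6 tests). The WL groups differed by 1.18 points (exact permutation p = 0.85, adjusted p = 0.85). HH did not overlap CC_l, whereas H and C overlapped. The obesity difference stayed negative whichever 1 library was left out (-8.575 to -4.153 points) and in 8 of 9 other settings. It changed sign with equal peak numbers. After WL the direction was not stable. With equal peak numbers per library the differences were 2.287 points in obesity and -0.2973 points after WL. Leaving out 1 library moved the WL difference from -6.263 (without CCC replicate 3) to 8.331 (without CCC replicate 1). No gain of H3K27ac beyond the spread between libraries was detected, and the values did not show that diet and control were alike.

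H3K4me1 at the same regions was 14.9% ± 0.662 (n = 3) in H and 10.1% ± 0.521 (n = 3) in C, with no overlap. It was 11.9% ± 3.43 (n = 3) in HC and 18.2% ± 19.4 (n = 3) in CC_s. In the 25-week cohort it was 47.9% ± 31.5 (n = 3) in HH and 88.7% ± 9.24 (n = 2) in CC_l, again with no overlap but with the order turned round, and 46.1% ± 34.2 (n = 3) in HHC and 85.7% ± 18.2 (n = 2) in CCC. The mean differences were -18.0 points in obesity (exact permutation p = 0.255, adjusted p = 0.306) and -22.9 points after WL (exact permutation p = 0.19, adjusted p = 0.285). The difference between the cohorts was itself not past the threshold in obesity (exact permutation p = 0.105, adjusted p = 0.72 over 9 such tests). With equal peak numbers per library, the mean H3K4me1 difference was -24.05 points in obesity (exact permutation p = 0.01, adjusted p = 0.06). After WL it was -25.79 points (exact permutation p = 0.045, adjusted p = 0.0675).

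At these regions, chosen for its absence in chow controls of the other cohort, H3K27me3 separated diet from control in each of the 4 comparisons. At the 2182 regions it was called at 1.15% and 1.56% in the H libraries against 0%, 0.0458% and 0.458% in C, and at 0.779%, 1.28% and 2.98% in HC against 0.0458%, 0.229% and 0.0917% in CC_s. At the 482 regions it was called at 6.64% and 2.07% in HH against 1.66% and 0.207% in CC_l, and at 4.56%, 2.70% and 5.81% in HHC against 1.04% and 0.415% in CCC. All 10 diet libraries were above every age-matched control library. The choice on chow controls favours this direction, and the tests cannot separate it from an effect of diet. Over all distal regions, H3K27me3 was called at 2.321% and 2.325% in H, below 2.667%, 2.993% and 3.852% in C. There, HC, HH and HHC overlapped their age-matched controls. The difference was 2.304 points in obesity (exact permutation p = 0.0167, the smallest that 60 arrangements allow) and 2.59 points after WL (exact permutation p = 0.01), and both had an adjusted p of 0.05, at the threshold and not under it. Without HH replicate 2 the difference in obesity was 1.16 points, and without HH replicate 3 it was 3.44 points.

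**Figure D3:**
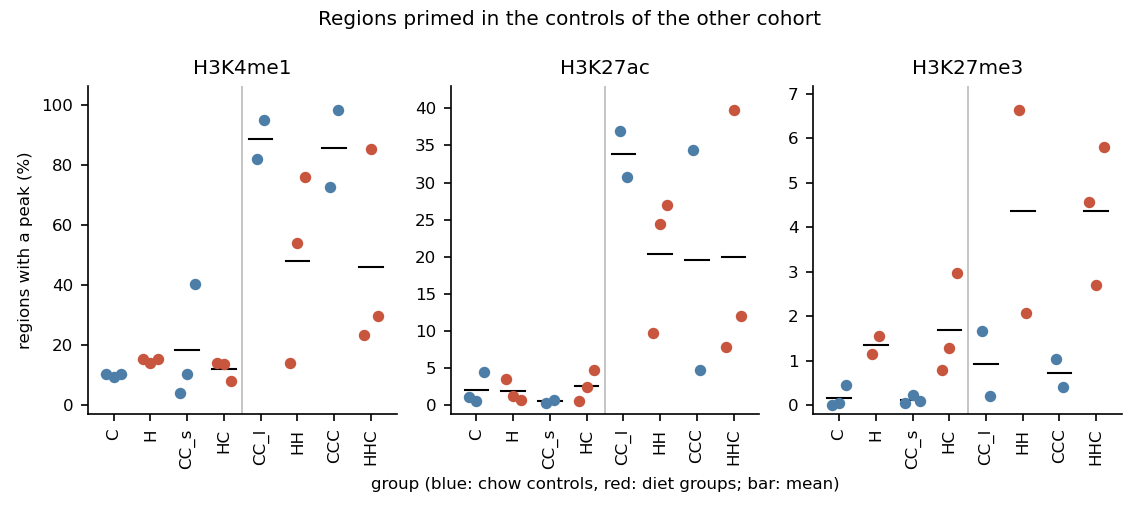
Regions (%) with a peak of H3K4me1, H3K27ac or H3K27me3 where the regions were chosen on the controls of the other cohort (2182 regions left of the grey line, 482 right of it), with 1 point per library, controls in blue, diet groups in red and bars at group means. H3K27me3 is higher in every diet library than in its age-matched controls, and H3K27ac and H3K4me1 are not.

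Unprimed regions were chosen on the same controls for comparison, 16921 for the 12-week cohort and 21823 for the 25-week cohort, an alternative added after the values were seen. There, H3K27me3 was higher in the obese groups by 0.766 points (exact permutation p = 0.267) and in the WL groups by 1.47 points (exact permutation p = 0.065). The difference at primed regions exceeded that at unprimed regions by 1.54 points in obesity (exact permutation p = 0.0167, adjusted p = 0.05) and by 1.12 points after WL (exact permutation p = 0.005, adjusted p = 0.03). H3K27ac at unprimed regions was higher in the obese groups by 2.33 points (exact permutation p = 0.05) and in the WL groups by 5.40 points (exact permutation p = 0.05). For H3K27ac, the difference at primed minus that at unprimed regions was -9.145 points in obesity (exact permutation p = 0.06). After WL it was -4.228 points (exact permutation p = 0.52). Widths were not balanced in this comparison, and many unprimed regions exist only through an H3K4me1 peak of a diet library. Both sets were chosen on chow controls, and only primed regions for H3K4me1 there, so the limit of that choice remains.

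At the 402 members, H3K27me3 was called in at least 1 diet library at 59 regions (14.7%), in 2 or more at 23 (5.72%) and in 3 or more of 10 at 10 (2.49%). The same counts were 11.7%, 3.34% and 1.22% over unprimed regions and 14.3%, 4.19% and 1.58% over those with H3K4me1 in 1 to 4 controls, so the share with H3K27me3 in at least 1 library was near that of the latter. The H libraries had it at 0.746% and 1.74%, and those of HC at 0.498%, 2.99% and 3.23%. Levels were 3.98% and 2.24% for HH, then 3.98%, 1.49% and 4.48% for HHC. Of the 59 members with diet H3K27me3, 29 also had H3K27ac in some diet library, near the 50% of all members with diet H3K27ac. Neither mark appeared in a diet library at 171 members (42.5%). H3K4me1 was kept in a median of 5 of 12 diet libraries at the 201 members with diet H3K27ac and of 3 at the 171 with neither mark. It was called in no diet library at 28 members (6.97%). This share and that of the 171 members with neither mark were not set beside other regions, so they do not set members apart.

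WL did not differ from obesity at the members beyond the spread. H3K27ac was at 3.32% ± 2.03 (n = 3) in HC and 1.82% ± 1.46 (n = 3) in H, and at 13.9% ± 8.49 (n = 3) in HHC and 11.2% ± 3.23 (n = 3) in HH, a mean difference of 2.11 points (exact permutation p = 0.515, adjusted p = 0.78 over 3 marks). H3K4me1 differed by -2.32 points (exact permutation p = 0.855, adjusted p = 0.855) and H3K27me3 by 0.601 points (exact permutation p = 0.52, adjusted p = 0.78). Without HHC replicate 2 the H3K27ac difference was -0.249 points.

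Primed and unprimed regions were also compared within the same diet libraries. Of the 18034 unprimed regions, 13545 had H3K4me1 in no control and were in the set only through an H3K4me1 peak of a diet library, so they do not stand for regions without H3K4me1 in the libraries measured. Weighted to the same widths, H3K27ac was called at a mean of 7.57% of primed and 7.95% of unprimed regions, a difference of -0.387 points ± 7.74 (SD, n = 12 libraries, exact sign-flip permutation test, two-sided, p = 0.866). Primed regions were higher in 6 of the 12 libraries and lower in 6. They were higher in H replicate 3 (1.24% against 0.232%), HC replicates 1 (0.995% against 0.229%) and 2 (4.23% against 0.96%), HH replicates 2 (11.2% against 7.18%) and 3 (14.4% against 5.83%) and HHC replicate 2 (23.4% against 8.61%). They were lower in H replicates 1 (3.48% against 3.93%) and 2 (0.746% against 1.96%), HC replicate 3 (4.73% against 10.3%), HH replicate 1 (7.96% against 17.4%) and HHC replicates 1 (6.97% against 14.8%) and 3 (11.4% against 24.0%). The mean near 0 thus came from libraries of opposite sign, also within groups. Against the 4489 unprimed regions with H3K4me1 in 1 to 4 controls, a comparison added after the values were seen, the difference was 0.213 points ± 4.02 (SD, n = 12, exact sign-flip permutation p = 0.853) with the same width weights, again higher in 6 libraries and lower in 6. Without width weights, primed regions were above these in every diet library except H replicate 2 (0.746% against 1.00%), so the count of libraries turned on width.

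**Figure D4:**
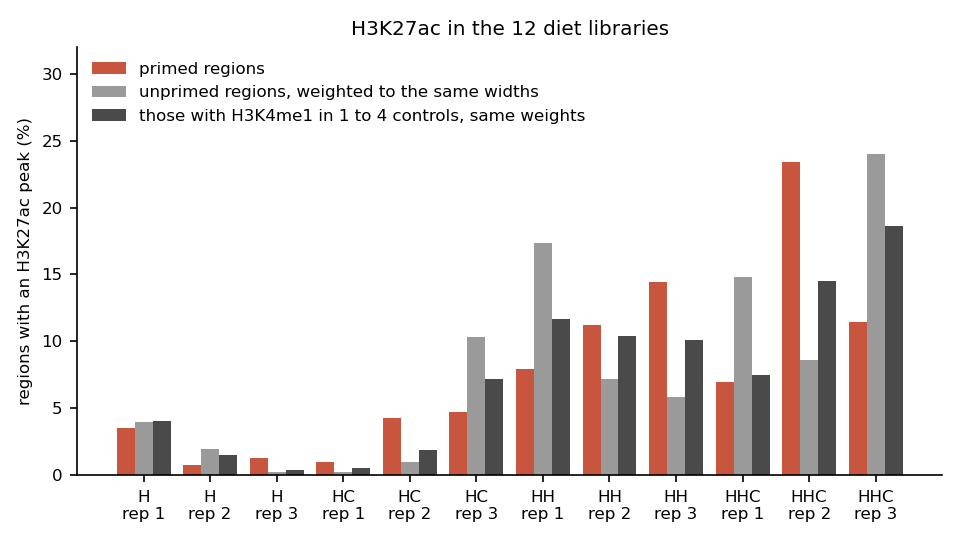
H3K27ac (% of regions with a peak) at primed regions (red) and at unprimed regions weighted to the same widths (light grey), and at those of them with H3K4me1 in 1 to 4 controls (dark grey), in each of the 12 diet libraries. The bars for HHC replicate 2 are 23.4%, 8.61% and 14.5%, and those for HHC replicate 3 are 11.4%, 24.0% and 18.7%.

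Other values of these libraries are given beside this sign. Active distal regions, chosen on controls, had H3K27ac at 56.2% in HH replicate 2, 67.2% in HH replicate 3 and 73.2% in HHC replicate 2, against 8.62% in HH replicate 1, 16.3% in HHC replicate 1 and 12.1% in HHC replicate 3. H3K4me1 in the library of the same group and number was called at 50.7%, 71.6% and 78.4% of the members in the first 3 of these and at 14.7%, 22.6% and 31.1% in the last 3. In the 12-week cohort, active regions were at 14.8% in H replicate 3, 17.5% in HC replicate 1 and 30.8% in HC replicate 2, against 20.7% and 9.61% in H replicates 1 and 2 and 9.11% in HC replicate 3, so that the sides overlapped. Macrophage markers with promoter H3K27ac numbered 0, 0 and 0 of 12 in H replicate 3, HC replicate 1 and HC replicate 2, and 9, 6 and 8 in H replicate 1, H replicate 2 and HC replicate 3. In the 25-week cohort they numbered 8, 5 and 5 in HH replicates 2 and 3 and HHC replicate 2, and 7, 11 and 7 in HH replicate 1, HHC replicate 1 and HHC replicate 3, again with overlap. The part of these values in the result was not tested.

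At members where H3K27ac appeared, H3K4me1 was more often called in the same region too. In HHC replicate 2, 91 of the 94 members with H3K27ac had H3K4me1 in the library of the same number (96.8%), against 72.7% of the members without H3K27ac. In HH replicate 3 these shares were 96.6% of 58 and 67.4%, and in HH replicate 2 they were 86.7% of 45 and 46.2%. In HH replicate 1, HHC replicate 1 and HHC replicate 3 they were 53.1%, 60.7% and 65.2% against 11.4%, 19.8% and 26.7%. The share was higher at members with H3K27ac in all 12 diet libraries, on counts of 3 to 19 members a library in H and HC. Each mark was scored by a peak touching any part of a region. Members with H3K27ac in a diet library were wider (median 3336 bp) than those without (2962 bp). Read depth of these libraries is unknown, and the part of width and depth was not tested.

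Named members were taken by a rule on these counts. Of the 11 members tied at 4 diet libraries, 6 were taken, first those with a diet group marked in full and then those with H3K4me1 in more diet libraries. The member with H3K27ac in the most diet libraries, 6 of 12, lay in an intron of Sgms1, which makes sphingomyelin (chr19:32308132-32312538). It had H3K27ac in all 3 HC libraries, in H replicate 1 and in HH replicates 2 and 3, and in no HHC library. Highest coverage in its H3K27ac peaks was 37 in H replicate 1, 97, 62 and 36 in HC replicates 1, 2 and 3, and 34 and 46 in HH replicates 2 and 3. The peaks ranked at percentiles 51.6, 4.91, 16.8, 69.8, 3.44 and 44.3 of their libraries in the same order. H3K4me1 was called there in 7 of 10 control and 8 of 12 diet libraries, and H3K27me3 in no diet library. It was the only member marked in every HC library.

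Of the 5 members with H3K27ac in 5 diet libraries, 4 were marked in all 3 HHC libraries. The first lay between genes 31609 bp from the TSS of Irf4, a transcription factor of lymphocytes and macrophages, with Dusp22, a phosphatase, as its closest gene body (chr13:30712921-30717617). It was also marked in H replicate 1 and HH replicate 1, at percentiles 7.48 and 52.7, and in HHC replicates 1, 2 and 3 at 13.2, 7.30 and 78.3. H3K4me1 was called there in 8 of 10 control and 11 of 12 diet libraries. The second lay 202369 bp from the TSS of Id2, an inhibitor of helix-loop-helix factors (chr12:25299509-25304787), and was marked in HC replicate 3 and HH replicate 1 besides HHC. The third lay where the bodies of Otulin, which removes linear ubiquitin chains, and Ank, a pyrophosphate regulator, overlap (chr15:27545371-27552742), and was marked in HH replicates 2 and 3 besides HHC. HHC replicate 2 gave these 3 regions its weaker peaks, at percentiles 7.30, 3.62 and 4.81.

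The fourth lay between genes near Cotl1, which binds actin (chr8:119805269-119808565, 26853 bp from the TSS of Tldc1). Its peaks in HHC replicates 1, 2 and 3 ranked at percentiles 67.9, 16.7 and 73.4, that in HH replicate 1 at 58.4 and that in HC replicate 3 at 15.2. The remaining one, an exon-overlapping region of Lrp6, a Wnt co-receptor (chr6:134541637-134547837), was marked in HC replicate 3, HH replicates 1 and 2 and HHC replicates 2 and 3, at percentiles 78.6, 27.8, 38.3, 52.5 and 15.2. No group had all its libraries marked there. It had H3K4me1 in 11 of 12 diet libraries and in 6 of 10 controls.

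Both members marked in every HH library were intronic. That in Acot7, an acyl-CoA thioesterase (chr4:152226015-152229171), was marked in HH replicates 1, 2 and 3 alone, at percentiles 12.7, 28.7 and 7.16. That in Ccdc50 (chr16:27410027-27414547) was also marked in HHC replicate 2, and its HH peaks ranked at 13.8, 47.5 and 37.9. Of the other members with 4 diet libraries, those taken by the rule lay in introns of Ube2g2, a ubiquitin-conjugating enzyme (chr10:77632569-77640194), Oma1, a mitochondrial protease (chr4:103340160-103342336), Rap1a, a small GTPase (chr3:105773293-105780399) and Zfat (chr15:68200853-68205862), and at an exon of Itgb1, integrin beta 1 (chr8:128702135-128706448). Those in Ube2g2 and Oma1 were marked in every HHC library. No member was marked in every obese and every WL library of its cohort.

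**Figure D5:**
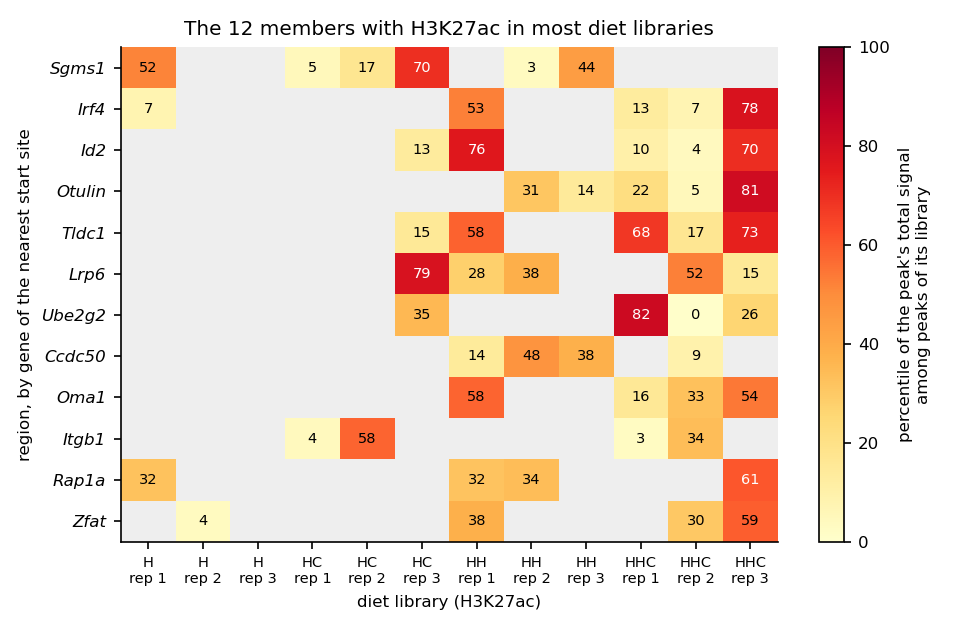
The 6 members with H3K27ac in 5 or 6 diet libraries and 6 of the 11 tied at 4 (rows, by the gene of the nearest TSS) in each diet library (columns), coloured by the percentile of the peak's total signal among the peaks of its library, with grey where no peak was called. Only the Sgms1 region is marked in all 3 HC libraries, and the Irf4, Id2, Otulin, Tldc1, Ube2g2 and Oma1 regions are marked in all 3 HHC libraries.

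H3K27me3 was called in the most diet libraries, 5 of 10, at 3 members without H3K27ac in any library. A region next to Nfasc, neurofascin (chr1:132556567-132562096, nearest TSS Cntn2), had it in both HH libraries, in 2 from HHC and 1 from HC, and in neither H library. This region had H3K4me1 in 9 of 10 controls and 4 of 12 diet libraries. A region next to Hrh2, a histamine receptor (chr13:54247338-54250077), had H3K27me3 in both HH libraries and in 1 library of each other diet group, and its H3K4me1, called in 5 of 10 controls, was called in no diet library. A region of Mindy4b-ps (chr3:58813042-58815079) had H3K27me3 in 1 H, 1 HC, 1 HH and 2 HHC libraries. An exon-overlapping region of Ak9, an adenylate kinase (chr10:41423041-41424993), had it in all 3 HHC libraries and 1 HH library and had H3K4me1 in no diet library.

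Of the 7 members with H3K4me1 in all 10 controls, 1 had H3K27ac in a diet library. The intronic region of Srpk2, a kinase of splicing factors (chr5:23654410-23656437), had H3K4me1 in 1 HC library and in no H, HH or HHC library. An intronic region of Fam178b (chr1:36646803-36650816) and an exon-overlapping one of Vps13c, a lipid transfer protein (chr9:67863589-67868920), had H3K4me1 in 4 of 12 diet libraries. An exon-overlapping region of Atxn10 (chr15:85363389-85366354) had it in 6 of 12. None of these 4 regions had H3K27ac or H3K27me3 in a diet library.

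By the closest gene body within 20000 bp, 348 members were linked to 309 genes, and 34 genes had 2 or more members. Ptprg, a receptor tyrosine phosphatase, had 5, of which 2 had diet H3K27ac. Of the gene lists used, adipocyte and lipid metabolism held 5 members, of which 4 had H3K27ac in a diet library. At Elovl6, a fatty acid elongase, 1 intronic member was marked in HH replicates 2 and 3 and HHC replicate 3 (percentiles 45.7, 31.4 and 42.7) and another in HH replicate 1 (24.8). At Zfp423, a factor of adipocyte commitment, 1 was marked in HH replicate 2 and HHC replicate 2 (15.3 and 35.4) and another in HH replicate 3 (3.39). At Ebf2, another such factor, the member had no diet H3K27ac and had H3K27me3 in 1 diet library.

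Insulin and glucose genes had 3 members, at Irs1, Gsk3b and Igf1r, of which that at Igf1r was marked in HHC replicate 3. Inflammation and leukocyte genes had 1 member, at Dock10, marked in H replicate 2. Lysosome genes had 2, at Tfeb and Lamp2, without diet H3K27ac, and extracellular matrix genes had 2, at Loxl2 and Adamts12, of which the second was marked in HHC replicate 2. The list of TGF-beta, BMP, activin and Wnt genes had the Lrp6 region alone, and the AP-1 and stress factors and the circadian clock had none. Against the 50% of all members with diet H3K27ac, 8 of the 14 list members had it, counts too small to set a list apart. Members made up 1.78% of all distal regions linked to a gene, and 0.592% of those linked to the inflammation list, 1.16% to the TGF-beta list, 2.17% to matrix, 2.8% to insulin, 4.9% to adipocyte and 5.56% to lysosome genes, with 1 to 5 members each.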

How the data were processed

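The series held 84 CUT&Tag libraries of 4 histone marks from 8 groups of mice. According to the study's methods and the processing notes, the authors trimmed reads (Trim Galore 0.6.6), aligned them to mm10 (Bowtie2 2.4.4, SAMtools 1.13) and called peaks per library with SEACR 1.3 (stringent mode, threshold 0.01) on bedtools 2.30 coverage. The deposited files hold, per peak, the total and the highest signal in whole-number coverage that was not scaled between libraries, so only the presence of a peak was compared. No read totals were given, so counting intervals could not be set.

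Peaks of the 22 H3K4me1 libraries were merged on chromosomes 1 to 19, X and Y. TSS came from protein-coding transcripts of the GENCODE M21 basic set (41438 positions, GRCm38). A peak covering 1 bp marked a region. Members, gene lists, tests and the rule for named regions were chosen with earlier results of these data known. Named were 12 members taken in order of diet libraries with H3K27ac (ties by diet groups marked in full, then diet H3K4me1 libraries, then genomic order), up to 3 per diet group marked in all its libraries, up to 4 per cohort marked in all its diet libraries, 4 with the most H3K27me3, 4 with H3K4me1 in all controls and the fewest diet libraries, and listed-gene members with H3K27ac in 6 or more diet libraries, of which there were 0.

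Shares of regions per library were compared by exact permutation tests within cohorts, two-sided, and by exact sign flips over libraries, with Benjamini-Hochberg adjustment and 0.05 as the threshold. The study calls the libraries of a group biological replicates, which the labels do not detail, so p-values measure the spread between these libraries. The merged regions were kept when 1 library was left out. The interval code and tests were tested on simulated data. For 4 H3K4me3 libraries the treatment field names another group than the title. Titles were used, and since every H3K4me3 library entered the rule alike, no value depends on this choice. Analyses ran in Python 3 with numpy, pandas, scipy and matplotlib.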

Additional observations from a re-analysis of the deposited data

How the results depend on the processing

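Of 389 values under alternative settings, 325 kept direction and side of the threshold (counts within 1.5 times), 4 passed the threshold where the reported value did not, 33 counts moved and 27 differences changed sign, all of them differences that were not past the threshold. With equal peak numbers per library, H3K27ac at regions chosen on the other cohort differed by 2.287 points in obesity and -0.2973 after WL, primed minus unprimed was 0.3168, and members numbered 1504, with 6, 18 and 20 marked in every H, HH and HHC library. With H3K4me1 in 8 or more controls, the WL difference was -1.206 and 45 members remained under the rule, 0, 0 and 1 of them marked in every HC, HH and HHC library. Allowing H3K27ac in 1 control gave -2.395 for WL, 1.314 for primed minus unprimed, and 782 members, 10 and 12 of them marked in every HH and HHC library. Regions of 5000 bp or less left 3 for HHC. The WL difference of H3K27ac was -2.802 after subtracting the share of all distal regions and -4.228 after subtracting that of unprimed regions, and primed minus unprimed was 2.379 without width strata (exact sign-flip permutation p = 0.247) and 0.2126 against unprimed regions with H3K4me1 in 1 to 4 controls (p = 0.853). H3K27me3 after WL passed the threshold, at an adjusted exact permutation p of 0.03 each, in regions of 5000 bp or less (2.433 points), minus all distal regions (2.109), minus unprimed regions (1.123) and with regions chosen without CC_s replicate 3 of H3K4me1 (3.241), where primed minus unprimed was 0.5367. With equal peak numbers, H3K27me3 differed by 1.447 points in obesity and 2.087 after WL (adjusted exact permutation p = 0.0667 each). With H3K4me1 in 8 or more controls, the adjusted exact permutation p for H3K27me3 was 0.165 in obesity and 0.06 after WL. The unprimed subtraction, the 1 to 4 controls and the choice without CC_s replicate 3 were added after seeing the data. The causes were not tested.

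Leaving out 1 library at a time, the H3K27ac difference ranged from -8.575 to -4.153 in obesity and from -6.263 (without CCC replicate 3) to 8.331 (without CCC replicate 1) after WL, WL minus obesity from -0.2488 to 3.856, and primed minus unprimed from -1.765 to 0.7206. H3K4me1 ranged from -25.01 to -9.502, from -32.77 to -17.06 and, for WL minus obesity, from -10.9 to 4.167, and H3K27me3 from 1.163 to 3.445, from 2.231 to 3.009 and from 0.1658 to 1.057. Members numbered 210 to 524, with 240, 250, 220 and 210 without the H3K4me1 library of CC_s replicate 3, CC_l replicate 1, CC_l replicate 2 and CCC replicate 3, and those marked in every library 0 to 1 for H, 1 to 2 for HC, 1 (without H3K4me1 of CC_s replicate 3, of either CC_l library or of either CCC library) to 25 (without H3K27ac of HH replicate 1) for HH and 3 (without H3K4me1 of CC_l replicate 2 or of either CCC library) to 15 for HHC. Where an H3K27ac library of the group itself was left out, fewer libraries had to be marked. Same-numbered libraries showed little joint deviation (correlations from -0.185 to 0.177, over 0.1 in 4 of 43 pairs), so the numbers were not taken as pairs. Those over 0.1 were between HHC and HH (H3K27ac 0.111 and 0.177, H3K4me1 0.13) and between HHC and CCC (H3K27ac 0.122). Replicate 3 of HHC and HH was at -0.158 for H3K27ac and -0.182 for H3K4me1. With the replicate block, H3K27ac differed by -8.458 in obesity and -4.331 after WL, and H3K27me3 by 3.88 and 3.009, where the smallest permutation p possible is 0.25 and 0.0625, so the threshold cannot be passed. Read depth is unknown, and a region without a peak may carry the mark below what was called.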

Other observations

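Members were found on every chromosome except Y, and made up 0.924% of the distal regions of chromosome 9 and 2.52% of those of chromosome 14 at the extremes, with 2.46% on X. A further 30 distal regions had H3K4me1 in 5 or more controls, no control H3K27ac and H3K27me3 in 1 or more controls. Of these, 13 had H3K27me3 in exactly 1 of 10 controls, and 30.8% of the 13 had H3K27ac in a diet library. The 380 regions with H3K27ac in exactly 1 of 9 controls, just outside the rule, had diet H3K27ac in 1 or more libraries at 68.9% and in 3 or more at 20.5%, against 50% and 11.4% of the members. Members with H3K27ac in 3 or more diet libraries were wider (median 4487 bp) than those without any (2962 bp), and a control H3K27ac peak lay within 5000 bp of 47.8% of the former and 27.9% of the latter.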
